A study of Mus musculus with 8 samples.

Results

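The RNA of 9 genes of memory and stem-like T cells was read in CD8+ T cells with and without a guide against Elovl1, the gene of an enzyme that elongates fatty acids to very long chains. The 9 genes were Tcf7, Lef1, Id3, Bach2, Foxo1, Klf2, Slamf6, Ccr7 and Il7r, chosen by their symbols from the 56805 in the count table, and all 9 were among the 16006 genes tested. The cells were OT-I CD8+ T cells, whose transgenic receptor recognises a peptide of chicken ovalbumin, from mice with a Cas9 knock-in at Rosa26. All cells, controls included, carried Cas9, were activated in vitro with CD3/CD28 beads, expanded in IL-2, IL-7 and IL-15, received a lentiviral guide vector and were sorted 3 days after transduction on CD90.1, the reporter of that vector. The sgElovl1 cells (labelled Elovl1 KO) received a guide against Elovl1 and the sgNT cells (labelled Control) a non-targeting guide. Each deposited column summed 2 mice of a group, so that the 8 labelled samples, from experiments 2 and 1, entered as 4 columns, and the spread between mice was not seen. The sorted cells were a transduced population and not a clone, and the share of cells with an edit was not analysed here. Per the methods, the mice were young adults of either sex.

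These genes belong to a programme that naive, memory and stem-like CD8+ T cells share and that effector differentiation lowers. TCF1, the product of Tcf7, and its relative LEF1 are DNA-binding factors that maintain long-lived T cells, and BACH2 and ID3 hold back the effector fate, BACH2 as a repressor that competes with AP-1 factors and ID3 by binding E proteins. FOXO1 is kept out of the nucleus by AKT signalling and, when nuclear, promotes Klf2, Ccr7 and Il7r, while KLF2 promotes exit from tissue and quiescence. Slamf6 (Ly108), Ccr7 and Il7r encode surface receptors by which such cells are recognised, the last being the receptor of a survival cytokine that was in the culture medium.

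The promoters of the 2 members with the largest log2 fold changes in sgElovl1 against sgNT, Slamf6 and Klf2, are shown as the 250 bases before the annotated start, from RefSeq on build GRCm38.p6. The Slamf6 window lies at chr1:171917212-171917461 and the Klf2 window at chr8:72318812-72319061, both on the plus strand. Capitals mark the single match to the KLF motif searched for, CACCC, which reads GGGTG where it lies on the opposite strand.
Slamf6: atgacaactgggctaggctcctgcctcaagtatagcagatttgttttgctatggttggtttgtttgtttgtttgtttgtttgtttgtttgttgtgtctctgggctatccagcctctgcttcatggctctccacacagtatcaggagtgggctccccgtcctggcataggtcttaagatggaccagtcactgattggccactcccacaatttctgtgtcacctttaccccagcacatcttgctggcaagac
Klf2: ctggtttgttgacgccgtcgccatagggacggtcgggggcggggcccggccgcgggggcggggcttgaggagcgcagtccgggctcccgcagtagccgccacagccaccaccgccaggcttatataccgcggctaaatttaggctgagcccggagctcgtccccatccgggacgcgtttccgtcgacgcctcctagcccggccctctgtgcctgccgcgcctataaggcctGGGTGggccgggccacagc
The match in the Klf2 window lies 19 bases before the start. RefSeq promoters were matched for 8 of the 9 members by symbol, with 12 windows in all, and Ccr7 had none. CACCC, on either strand, was in 8 of the 12 windows and in 52.0% of all 32851 windows of this length. By gene, it was in 4 of the 8 matched members, Lef1, Id3, Klf2 and Tcf7. Lef1 has 4 windows, and its windows 1 and 2 overlap and share their matches. Those windows and that of Id3 lie wholly within annotated exons (250 bases each). The FOXO motif GTAAACA, the TCF and LEF motif (CTTTGAA or CTTTGAT) and the AP-1 and BACH motif (TGAGTCA, whose opposite strand reads TGACTCA) were in 0 of the 12 windows and in 3.17%, 7.48% and 4.46% of all windows, both strands searched. A match is a description of these letters and not of binding.

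Total counts per column ranged from 49068952 to 63623476. On these unscaled totals, 3 counts, the limit that a count of 0 allows, stood for 0.0472 to 0.0611 CPM, for counting error only. For all other levels here, CPM is the count as a share of the TMM-scaled library. Elovl1, the check of the labels, had 55.8 and 61.3 CPM in sgElovl1 cells of experiments 2 and 1, against 93.5 and 110 CPM in sgNT cells (log2 fold change -0.80, SE 0.07, adjusted p = 3.8e-28 by edgeR). Permuting the 4 columns (exact, two-sided) gave p = 0.333, and no smaller p can come from 2 columns against 2. With no experiment term, the adjusted p was 1.00 in edgeR. With any 1 column left out, guide was the only term, and the log2 fold change was -0.89 to -0.68. The difference between experiments entered those values by construction. The labelled cell type was checked against its markers. The 6 CD8 T cell identity genes (Cd3e, Cd3d, Cd8a, Cd8b1, Trac, Lck) summed to 3661 to 4013 CPM. Lists for other cells were low, at 7.58 to 9.79 CPM for B cells, 9.31 to 14.9 CPM for myeloid cells, 1.58 to 3.36 CPM for NK cells and 0.247 to 0.433 CPM for erythroid cells, with Ms4a1, Ncr1 and Hbb-bs at 0 in all 4 columns. The CD4 T cell list summed to 30.7 to 37.5 CPM, nearly all of it Zbtb7b and Foxp3, while Cd4 itself was at 0 to 0.114 CPM.

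The 9 genes spanned a wide range of levels, with Tcf7 far above the rest. Tcf7 alone held 41.8% of the counts of the members. Per kb of exon, its mean over the 4 columns was 154 CPM, with 229 and 90.3 CPM per kb in sgElovl1 cells of experiments 2 and 1, against 217 and 79.0 CPM per kb in sgNT cells. Klf2 (64.7 CPM per kb) and Ccr7 (62.3 CPM per kb) came next. Their order turned between experiments: Klf2 was above Ccr7 in experiment 2 (93.2 against 74.1 CPM per kb in sgElovl1 cells, 85.7 against 74.0 in sgNT cells) and below it in experiment 1 (44.0 against 53.9 in sgElovl1 cells, 36.0 against 47.1 in sgNT cells). Foxo1 (10.9 CPM per kb), Lef1 (10.8) and Id3 (8.79) formed a middle group whose columns overlapped, followed by Il7r (6.48) and Slamf6 (5.15), which overlapped each other. Bach2 was lowest at 2.34 CPM per kb, with columns of up to 3.18 that overlapped those of Slamf6. Over all columns, only the gap between Ccr7 (47.1 or more) and Foxo1 (12.4 or less) was bridged by no column of a neighbour in this order, but Tcf7 was above Klf2 within each column. Exon lengths came from GENCODE M21, and with the longest coding transcript in their place the first 3 and the last kept their order while Lef1 came to 27.2 CPM per kb, above Id3 (12.3), Foxo1 (10.9), Slamf6 (9.73) and Il7r (8.54). Counting ran over whole genes, introns included, which these lengths do not follow, and 88.7% of the exonic bases of Tcf7 lie under another gene of the same strand in that annotation, Gm26551, which was not analysed here. The levels per kb of Tcf7 are therefore uncertain. In a bulk sample, fewer cells that express a gene and less RNA per cell cannot be told apart.

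**Figure D1:**
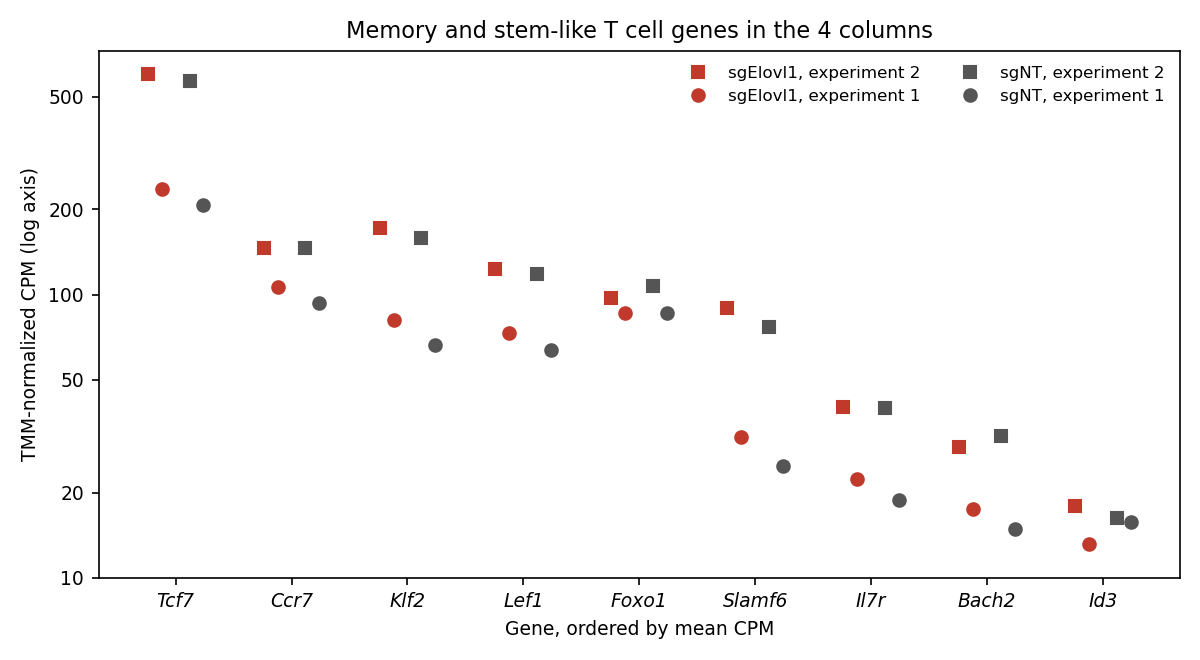
Level of each gene (TMM-normalized CPM, log axis) in the 4 columns, with genes from left to right by mean CPM; red is sgElovl1, grey is sgNT, squares are experiment 2 and circles experiment 1, each point the sum of 2 mice. Every gene was higher in the squares than in the circles of the same guide, while the colours lay close together, from Tcf7 (600 and 237 CPM in sgElovl1 cells, 569 and 207 CPM in sgNT cells) down to Id3 (17.9 and 13.1 CPM in sgElovl1 cells, 16.3 and 15.7 CPM in sgNT cells).

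The question of the guide comparison was whether loss of Elovl1 moved cells along this programme in culture. One receptor, Slamf6, rose in sgElovl1 cells, by 21.3%, and the other 8 members were not past the threshold (adjusted p under 0.05 over all genes tested, edgeR). Thus 1 of 9 members was called higher and 0 lower (with Slamf6, Klf2 and Tcf7 at an unadjusted p under 0.05), beside 0.762% of all genes called higher and 0.437% called lower (1.2% in either direction). The median log2 fold change of the members was 0.13, against -0.01 for all genes tested. In both experiments, 6 of the 9 were higher in the sgElovl1 column than in the sgNT column (background 25.4%) and 0 were lower (background 29.8%). For all 9 members the 2 sgElovl1 columns overlapped the 2 sgNT columns. Over all genes, 5.77% had both sgElovl1 columns above both sgNT columns and 6.85% had both below. This count ignores the pairing by experiment, and the members differed between experiments by 0.25 to 1.58 in log2 units. The overlap therefore says little of the guide.

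Among the surface receptors, Slamf6, a homophilic receptor of the SLAM family that signals through the adaptor SAP, had 89.8 and 31.4 CPM in sgElovl1 cells of experiments 2 and 1, against 77.1 and 24.7 CPM in sgNT cells. The sgElovl1 column was the higher of the pair in each experiment. Over both experiments it stood at a log2 fold change of 0.28 (adjusted p = 0.0168 in edgeR, SE 0.07). Experiment 2 gave 0.22 (95% interval 0.16 to 0.28) and experiment 1 gave 0.34 (0.24 to 0.44). The intervals per experiment cover counting error only, and the SE comes from a dispersion trend fitted over all genes. The call was lost with no filter on low counts (adjusted p = 0.0869 in edgeR) and with a filter at a mean of 5 CPM (0.0742). It was also lost in DESeq2 (0.382 by the Wald and 0.341 by the likelihood-ratio test) and with no experiment term in edgeR (1.00). In edgeR it held with DESeq2 size factors (0.0130), upper-quartile factors (0.00525) and mitochondrial and the 20 most counted genes removed (0.00668). It held in limma-voom (0.0276). With any 1 column left out, guide was the only term and Slamf6 ranged from -0.68 to 1.32. The difference between experiments entered these values by construction. When a shift of each gene along its difference between the experiments was removed, Slamf6 came to 0.14 (adjusted p = 0.682 in edgeR).

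Ccr7, the receptor for the lymph node chemokines CCL19 and CCL21, had 147 and 107 CPM in sgElovl1 cells, against 146 and 93.1 CPM in sgNT cells. Its log2 fold change was 0.00 in experiment 2 (95% interval -0.04 to 0.05) and 0.20 in experiment 1 (0.14 to 0.25). Il7r, the alpha chain of the IL-7 receptor, had 40.1 and 22.4 CPM in sgElovl1 cells, against 39.6 and 18.8 CPM in sgNT cells. Here too the 2 columns of experiment 2 could not be told apart by counting error, at 0.02 (-0.07 to 0.11), while experiment 1 gave 0.25 (0.14 to 0.37). Over both experiments the log2 fold changes were 0.10 for Ccr7 (SE 0.06) and 0.13 for Il7r (SE 0.08), with adjusted p of 0.635 and 0.607 in edgeR. Once that shift was removed, they were 0.05 for Ccr7 and 0.04 for Il7r (adjusted p = 0.938 and 0.965 in edgeR).

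Of the FOXO1 axis, Klf2 came nearest to the threshold. It had 172 and 81.2 CPM in sgElovl1 cells, against 158 and 66.4 CPM in sgNT cells. The fit gave 0.20 on the log2 scale (adjusted p = 0.0969 in edgeR, SE 0.06), from 0.12 in experiment 2 and 0.29 in experiment 1. Klf2 was past the threshold with upper-quartile factors (0.22, adjusted p = 0.0329) and with mitochondrial genes and the 20 most counted genes removed (0.23, adjusted p = 0.0426), both in edgeR. It was not past the threshold with no filter on low counts (adjusted p = 0.332 in edgeR) or in DESeq2 (adjusted p = 0.579 by the Wald test and 0.514 by the likelihood-ratio test). Once the same shift as for Slamf6 was removed, it stood at 0.10 (adjusted p = 0.795 in edgeR). Foxo1 itself had 97.4 and 86.5 CPM in sgElovl1 cells, against 107 and 85.9 CPM in sgNT cells. Its log2 fold change was -0.07 (SE 0.07), from -0.14 in experiment 2 and 0.01 in experiment 1. The level of Foxo1 RNA does not show how much of the protein was nuclear.

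Tcf7 had 600 and 237 CPM in sgElovl1 cells, against 569 and 207 CPM in sgNT cells. The sgElovl1 columns were higher by 0.08 in experiment 2 and 0.19 in experiment 1 on the log2 scale, and by 0.13 over both (SE 0.06, adjusted p = 0.431 in edgeR). Lef1 had nearly the same changes, 0.07 and 0.20, with 124 and 72.9 CPM in sgElovl1 cells, against 118 and 63.7 CPM in sgNT cells. Over both experiments it stood at 0.13 (SE 0.07, adjusted p = 0.471 in edgeR). These were the 2 DNA-binding factors of the TCF family among the members, and neither passed the test. Once that shift was removed, Tcf7 stood at 0.01 and Lef1 at 0.06 (adjusted p = 0.990 and 0.934 in edgeR).

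The inhibitors of the effector fate changed sign between experiments. Bach2 had 29.0 and 17.5 CPM in sgElovl1 cells, against 31.6 and 14.9 CPM in sgNT cells, which is -0.13 in experiment 2 and 0.23 in experiment 1 on the log2 scale. Id3 had 17.9 and 13.1 CPM in sgElovl1 cells, against 16.3 and 15.7 CPM in sgNT cells, or 0.14 and -0.26. Over both experiments, Bach2 was at 0.04 (SE 0.09, adjusted p = 0.935 in edgeR) and Id3 at -0.06 (SE 0.10, adjusted p = 0.918). Id3 rested on the fewest counts of the 9, between 690 and 996 per column.

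**Figure D2:**
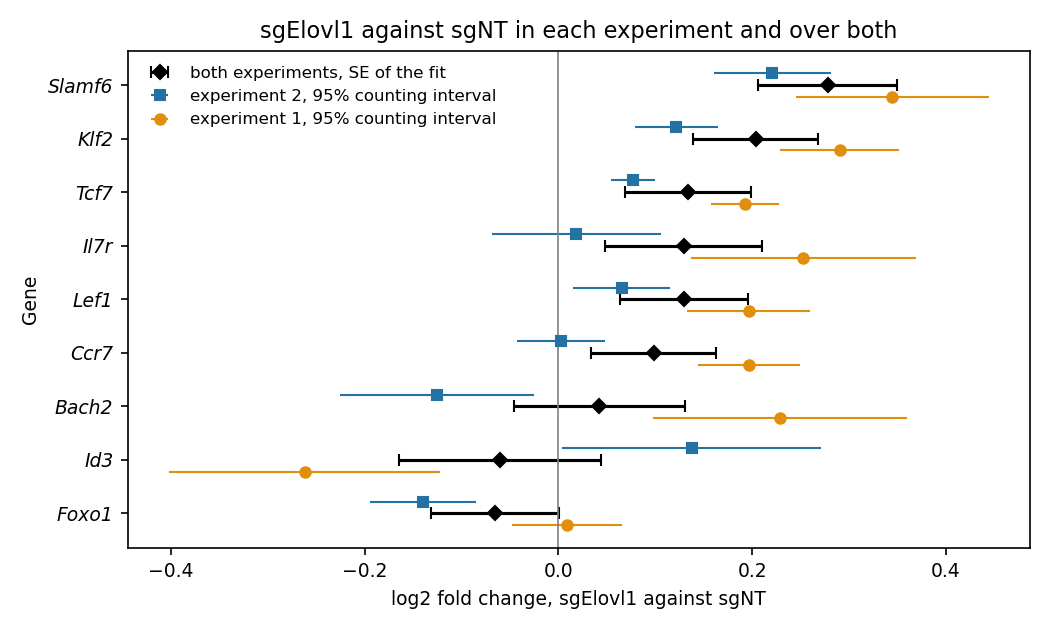
Log2 fold change of sgElovl1 against sgNT for each gene; black diamonds are both experiments with the SE of the fit, blue squares experiment 2 and orange circles experiment 1, each with a 95% interval for counting error only. Slamf6 lies to the right of 0 in both experiments (0.22 and 0.34), whereas Bach2 (-0.13 and 0.23) and Id3 (0.14 and -0.26) lie on opposite sides.

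Genes around the members were read from lists drawn up with earlier results of these data known. Of 24 tested genes in a list of other memory and naive genes, 0 were past the threshold in edgeR (7 at an unadjusted p under 0.05, 6 of them higher; median 0.02). The smallest p was that of Igfbp4, which encodes a binding protein of insulin-like growth factors, at 0.25 (adjusted p = 0.0520 in edgeR). Of 17 tested FOXO targets, 1 was called, beside 1.2% of all genes. This was Pik3ip1, an inhibitor of PI3K signalling. It rose by 0.25 in log2 units (adjusted p = 0.0207 in edgeR, SE 0.07), with 165 and 40.7 CPM in sgElovl1 cells, against 142 and 33.1 CPM in sgNT cells.

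Among 28 tested paralogues and partners of the members, 0 were called higher and 2 lower, beside 0.762% and 0.437% of all genes. Both were relatives of Slamf6 in the SLAM family. Slamf7 had 25.6 and 85.1 CPM in sgElovl1 cells, against 34.8 and 95.4 CPM in sgNT cells, and fell by 0.29 in log2 units (adjusted p = 0.00954 in edgeR, SE 0.07). Ly9 had 87.6 and 108 CPM in sgElovl1 cells, against 107 and 124 CPM in sgNT cells, and fell by 0.24 (SE 0.07, adjusted p = 0.0293). The sgElovl1 columns of Slamf6 were thus the higher ones in both experiments and those of Slamf7 and Ly9 the lower ones. Cd244a had -0.25, Cd84 0.06 and Slamf1 0.07, and the SAP adaptor Sh2d1a was at -0.01, none past the threshold. Of 12 tested effector and terminal genes, 0 were called in edgeR (1 at an unadjusted p under 0.05; median -0.02), with the pore-forming protein gene Prf1 nearest at -0.30 (adjusted p = 0.0751 in edgeR) and Gzmb, the cytotoxic protease granzyme B, at -0.00. Of all the listed genes other than the members, 0 were called in DESeq2 by either test (7 at an unadjusted p under 0.05), with a filter at 5 CPM in edgeR (12) or with no experiment term in edgeR (0).

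The experiments differed far more than the guides. All 9 members were higher in experiment 2 than in experiment 1 and past the threshold, Slamf6 most (2.98-fold), then Tcf7 (2.64-fold) and Klf2 (2.25-fold), with Id3 and Foxo1 least (1.19-fold each). Over all genes, 26.4% were called higher and 29.2% lower in experiment 2 (55.6% in either direction). Both experiment 2 columns were above both experiment 1 columns in all 9 members and in 37.4% of all genes, and below them in 0 members and 38.4% of all genes. At least 2-fold higher were 3 of the 9, beside 7.92% of all genes. The median log2 difference of the members was 0.91, against -0.00 for all genes tested. Summed over the 9 genes, experiment 2 had 1317 CPM in sgElovl1 and 1264 CPM in sgNT cells, against 669 and 591 CPM in experiment 1, or 0.127% and 0.129% of all counts, against 0.0682% and 0.0588%. The labels give only the number of the experiment, so the mice, the culture, the sort and the sequencing cannot be told apart here.

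The difference held within each guide for most members. Slamf6 was higher in experiment 2 by 1.52 in sgElovl1 cells and 1.64 in sgNT cells on the log2 scale, and by 1.58 in the fit (adjusted p = 1.19e-99 in edgeR, SE 0.07). Tcf7 was higher by 1.34 and 1.46 in sgElovl1 and sgNT cells, and Klf2 by 1.08 and 1.25 (1.17 in the fit). Then followed Il7r (0.85 and 1.08), Bach2 (0.73 and 1.09), Lef1 (0.76 and 0.89) and Ccr7 (0.46 and 0.65), each with 95% counting intervals above 0 in both guides. In these 7 genes the difference was larger in sgNT than in sgElovl1 cells, which is the same arithmetic as a larger guide difference in experiment 1, and whether it differed between guides was not tested.

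Foxo1 and Id3 had the smallest differences. Foxo1 was higher in experiment 2 by 0.25 in log2 units (adjusted p = 4.92e-04 in edgeR, SE 0.07), with 0.17 in sgElovl1 cells and 0.32 in sgNT cells. Id3 was higher by 0.25 (SE 0.10, adjusted p = 0.0340 in edgeR), with 0.45 in sgElovl1 cells (95% interval 0.31 to 0.59) and 0.05 in sgNT cells (-0.09 to 0.18). The call on Id3 was lost in DESeq2 (adjusted p = 0.220 by the Wald test) and with no guide term (adjusted p = 0.0991 in edgeR). It was also lost without the sgElovl1 column of experiment 2 (0.17) or of experiment 1 (0.12) and without the sgNT column of experiment 2 (0.33), with adjusted p from 0.0790 to 0.454. The call on Foxo1 was lost without the sgNT column of experiment 2 (0.19, adjusted p = 0.185 in edgeR).

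**Figure D3:**
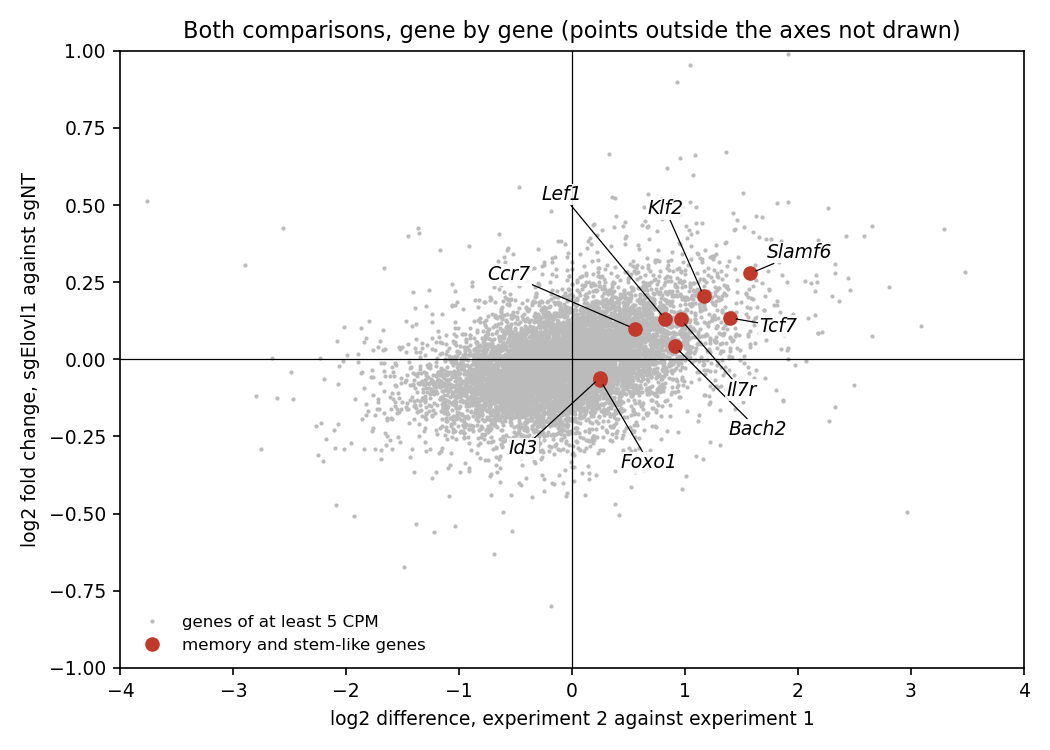
Log2 fold change of sgElovl1 against sgNT (vertical axis) and log2 difference of experiment 2 against experiment 1 (horizontal axis) for genes of at least 5 CPM (grey) and the 9 members (red); both axes are made from the same 4 columns. All 9 members lie right of 0, out to Slamf6 (1.58 on the horizontal and 0.28 on the vertical axis), and Id3 and Foxo1 lie nearly on the same spot.

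Most other genes of memory and naive cells moved the same way between the experiments. Of the 24 tested, 18 were higher, 2 lower and 4 not past the threshold, with a median log2 difference of 0.91. Beside this and the next list, 26.4% of all genes were called higher and 29.2% lower. Among those with the largest differences were Bcl6, a transcriptional repressor that opposes effector differentiation (2.18), Dapl1 (2.16) and Il6ra, the IL-6 receptor chain (1.87). Igfbp4 went the other way, at -0.30, as did the survival gene Bcl2 at -0.52, which was chosen after its value was seen. Of 17 tested FOXO targets, 14 were higher, 2 lower and 1 not called (median 0.80), with Pik3ip1 at 2.06 and, in the other direction, Bnip3, a mitophagy receptor gene that hypoxia also induces, at -2.49. The lists overlap, S1pr1 and Bcl6 being among the genes in both.

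Most effector and terminal genes were lower in experiment 2. Of 12 tested, 2 were higher, 7 lower and 3 not called (median -0.41), beside 26.4% of all genes called higher and 29.2% lower. Gzmb had 612 CPM in sgElovl1 and 605 CPM in sgNT cells of experiment 2, against 2458 and 2498 CPM in experiment 1, and a log2 difference of -2.03. The inhibitory receptor gene Havcr2 was at -1.47, Prf1 at -1.07 and Id2, the inhibitor of E proteins tied to effector cells, at -0.83. Batf (0.81) and Runx3 (0.16) were the 2 genes that were higher. Id2 had 159 CPM in sgElovl1 and 161 CPM in sgNT cells of experiment 2, against 280 and 288 CPM in experiment 1, so that it fell in the experiment in which its paralogue Id3 was higher. Summed, the effector list had 1226 and 1216 CPM in sgElovl1 and sgNT cells of experiment 2, against 3253 and 3331 CPM in experiment 1.

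**Figure D4:**
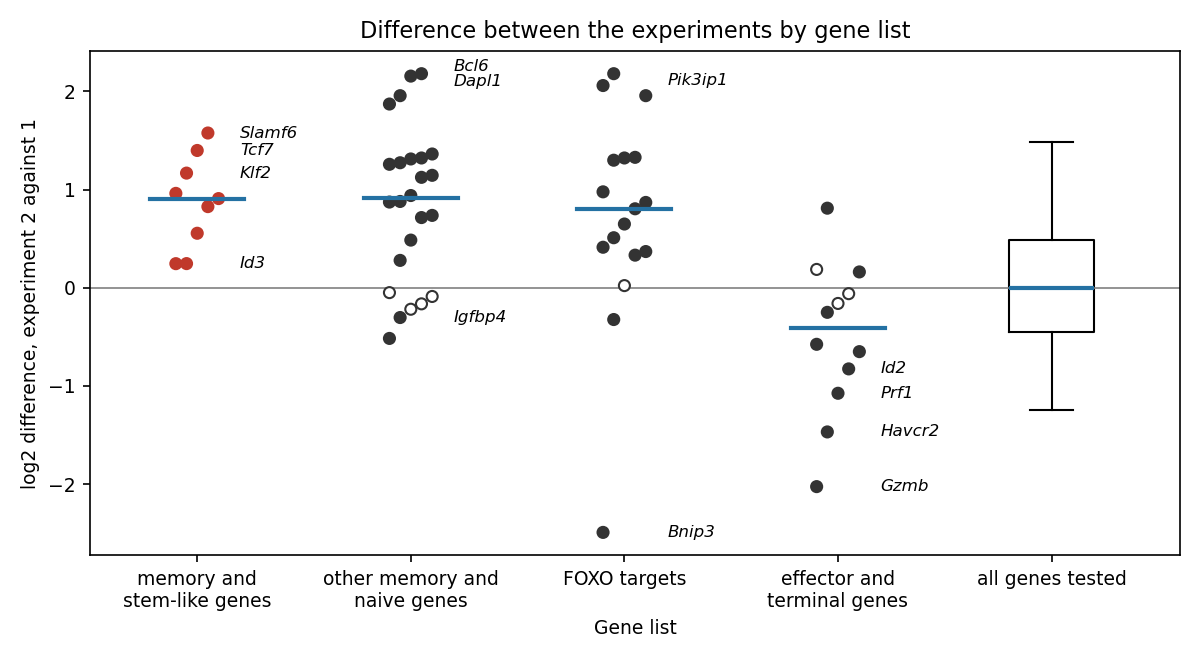
Log2 difference of experiment 2 against experiment 1 for each gene (points; filled where past the threshold) in 4 lists, with the list median as a blue line and, at the right, all genes tested (box for the quartiles, whiskers for the 5th and 95th percentiles). The medians are 0.91, 0.91, 0.80 and -0.41, against -0.00 for all genes.

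Of the 28 paralogues and partners tested, 14 were higher, 8 lower and 6 not called (median 0.34). The shares of all genes were 26.4% higher and 29.2% lower. Within the SLAM family, Slamf6 and Cd84 (0.51) were higher in experiment 2, while Slamf7 (-1.59), Cd244a (-1.64), Slamf1 (-0.46) and Ly9 (-0.26) were lower. The relatives of FOXO1, Foxo3 (0.59) and Foxo4 (0.43), were both higher, and of the corepressors that bind TCF factors Tle3 was higher (0.66) and Tle1 (-0.25) and Tle4 (0.08) were not called. Il2rg, the common gamma chain with which the IL-7 receptor alpha chain pairs, was at -0.07 and not called, and Jak1 (0.58) and Jak3 (0.46), the kinases of that receptor, were higher. Klf4 had a larger value (2.30) that rested on at most 0.681 CPM. Cd84, Slamf1, Foxo3, Foxo4, the Tle genes, Il2rg and the Jak genes were named for their role, with their values known.

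Among markers of other cells, the myeloid list summed to 14.9 and 13.4 CPM in sgElovl1 and sgNT cells of experiment 2, against 11.6 and 9.31 CPM in experiment 1, with Itgam called higher. The NK cell list summed to 3.36 and 2.78 CPM, against 1.58 and 1.97 CPM, with Tyrobp called higher. In the CD4 T cell list, at 37.5 and 36.0 CPM against 31.6 and 30.7 CPM, Foxp3 was called higher. Of the CD8 identity genes Cd8a (0.48), Cd8b1 (0.46) and Cd3d (0.32) were higher in experiment 2 and Trac (-0.52) was lower. The part of these differences in the result on the members was not tested, and the largest of the summed marker levels, 37.5 CPM, compares with 1317 CPM for the members in the same column.

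As a measure of likeness, the distance between the centred log2 CPM of a pair of genes was taken over the 4 columns, which says little of single genes with so few points. Slamf6 and Tcf7 were nearest to each other among the members (distance 0.23), as were Bach2 and Il7r (0.12) and Id3 and Foxo1 (0.27). Of the other members, Lef1 and Klf2 lay nearest to Il7r (0.14 and 0.22) and Ccr7 nearest to Lef1 (0.27). Among 9755 genes of at least 5 CPM, the nearest to each member were Gigyf1 for Tcf7 (0.03), Cd101 for Lef1 (0.01), Tesc for Id3 (0.02), Art4 for Bach2 (0.05), Med13l for Foxo1 (0.02), Eps8l1 for Klf2 (0.03), Meis3 for Slamf6 (0.05), Man2b1 for Ccr7 (0.02) and Inf2 for Il7r (0.02). In each case other genes lay nearer than the nearest member, from 19 genes for Bach2 to 2244 for Foxo1.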

How the data were processed

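RNA of sgElovl1 and sgNT OT-I T cells was sequenced as strand-specific mRNA libraries. Per the methods and the processing notes, the authors aligned reads with STAR 2.7.10b to GRCm39 and counted them over whole genes, reverse-stranded, with featureCounts 2.0.1 in R 4.3.3, summed the mice of an experiment and tested with DESeq2 1.42.0. The deposited values are raw counts of 56805 symbols in 4 columns of 49068952 to 63623476 counts. Here, 16006 genes passed filterByExpr, counts were scaled by TMM, and guide and experiment were tested in 1 model with the quasi-likelihood test of edgeR 4.0.16 in R 4.3.3 (Benjamini-Hochberg over all genes tested, threshold 0.05). With 1 residual degree of freedom and infinite prior degrees of freedom, p-values rest on the dispersion trend of all genes and on columns of summed mice. The intervals per experiment cover counting error only. Alternatives included limma-voom (limma 3.58.1) and DESeq2 1.42.0. The script was tested on simulated data. Members and lists were chosen with earlier results of these data known. Genes named were the members and Elovl1, and from each list up to 4 genes past the threshold for the guide (or the 2 with the smallest p) and up to 4 with the largest difference between the experiments, others being named for their role. Some items that this rule takes are not reported here.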

Additional observations from a re-analysis of the deposited data

Results flagged for a closer look

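For 3 members, Id3, Bach2 and Foxo1, the guide difference had opposite signs in the experiments, with 1 column per guide in each. Id3 had a log2 fold change of 0.14 in experiment 2 and -0.26 in experiment 1. Bach2 had -0.13 in experiment 2 and 0.23 in experiment 1. Foxo1 had -0.14 in experiment 2 and 0.0094 in experiment 1. In each case the difference between the experiments was not tested, because the 4 columns leave no error for it.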

How the results depend on the processing

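The result on the members between experiments held in number: 9 members were called, against 8 with DESeq2 (Wald and likelihood-ratio tests) and with no guide term, and 7 to 9 with 1 column left out. Id3 was the weakest, at 0.26 by the Wald test (adjusted p = 0.220) and the likelihood-ratio test of DESeq2 (0.215) and 0.24 with no guide term (0.0991 in edgeR). The guide result depended on the processing. The number of members called for the guide, 1 as reported, was 2 with upper-quartile factors and with mitochondrial genes and the 20 most counted genes removed (Slamf6 and Klf2). It was 0 with no filter (2 at an unadjusted p under 0.05, edgeR), with a filter at a mean of 5 CPM (4), by the Wald and the likelihood-ratio test of DESeq2 (3 each), with no experiment term (0) and with the shift between the experiments removed (0). Of the other listed genes, 3 were called as reported, against 1 with no filter and 1 with the shift removed. These counts need not be of the same genes, and the genes behind them are not given here. The number was 0 with a filter at 5 CPM (12 at an unadjusted p under 0.05, edgeR), by both tests of DESeq2 (7) and with no experiment term (0). The shift, a share of 0.0887 of the gene's own difference between experiments (the slope over 9756 genes), took Slamf6 to 0.14, Klf2 to 0.10, Lef1 to 0.06, Ccr7 to 0.05, Il7r to 0.04, Tcf7 to 0.01, Bach2 to -0.038, Id3 to -0.08 and Foxo1 to -0.09, with none past the threshold. Bach2 was at -0.0015 with no experiment term. Elovl1 kept its direction throughout, at -0.78 to -0.80, but was not past the threshold with no experiment term (-0.80, adjusted p = 1.00 in edgeR).

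Each column was also left out in turn with guide as the only term, so that by construction the difference between the experiments entered the guide difference. Elovl1 then ranged from -0.89 to -0.68 and no longer passed the threshold. The number called was 0 for the members (0 to 2 at an unadjusted p under 0.05, edgeR) and 0 for the other listed genes (2 to 7), in all 4 cases. All 9 members changed direction in 2 of the 4 cases. The range was -0.70 to 1.04 for Tcf7, -0.30 to 0.65 for Lef1, -0.27 to 0.16 for Id3, -0.45 to 0.67 for Bach2, -0.23 to 0.12 for Foxo1, -0.45 to 0.96 for Klf2, -0.68 to 1.32 for Slamf6, -0.21 to 0.47 for Ccr7 and -0.37 to 0.76 for Il7r. No paired analysis was possible because the deposited columns sum the replicates and carry no replicate number. The columns do pair by experiment, and the reported fit holds that pairing as its experiment term. Depth limited Id3 most, with 690 to 996 counts per column. The spread between mice was not analysed here.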
